A study of Homo sapiens with 4 samples.

Results

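The genes described here encode the translation initiation factors, from EIF1 to EIF6, together with the kinases of EIF2, the EIF4E-binding proteins and the Argonautes. They were chosen by symbol alone: every gene in the deposited tables whose symbol begins with EIF and a digit between 1 and 6. The tables still carry the older names EIF2C1 to EIF2C4 for the Argonautes AGO1 to AGO4, which are not initiation factors. The rule found 58 of the 16708 genes listed in at least 1 library, and 57 of them were listed in all 4 libraries. Of the 58, 56 had a mean of at least 0.5 RPKM and were tested among 11829 genes. RPKM is the number of reads on a gene scaled to a length assigned to that gene and to the size of the library.

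To ask which mRNAs depend on the RNA-binding protein QKI, the study depleted it from BEAS2B cells. These are human bronchial epithelial cells immortalized with a virus and grown in DMEM with 10% fetal bovine serum. The study examined both mRNA levels and alternative splicing. The RPKM values of whole genes used here do not show changes in splicing. The QKI-knockdown cells carried a retrovirus with 1 shRNA (sh-Q3), directed against all isoforms of QKI, and the control cells carried one with an shRNA against luciferase (sh-Luc). RNA-Seq gave 2 libraries per group, numbered replicate 1 and replicate 2 in both. Neither the labels nor the methods say whether libraries of the same group came from different cultures. The p-values therefore reflect how far these libraries lie apart, for the gene itself or for genes of like level, and that spread may be technical.

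Translation of most mRNAs starts when a small ribosomal subunit, loaded with initiator tRNA by EIF2, is recruited to the cap by EIF4 factors and EIF3 and scans to a start codon. Cells slow this step by phosphorylating EIF2, which blocks its recycling by EIF2B, or by holding the cap-binding protein EIF4E on its binding proteins. Argonautes carry small RNAs such as miRNAs to target mRNAs and repress their translation or stability.

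The libraries held between 20052951 and 34862008 reads by the totals recovered from the RPKM values, and replicate 2 was the deeper one in both groups. QKI itself was at 2.52 and 3.85 RPKM in QKI-knockdown replicates 1 and 2, against 8.94 and 14.6 RPKM in control replicates 1 and 2. The QKI-knockdown libraries were below the control libraries within each replicate number, by −1.64 and −1.80 on the scale log2(RPKM + 0.5), which is used for every difference below and understates the differences of low genes. Its mean difference was −1.72 (SE 0.38, limma adjusted p = 1.00; with the replicate number as a block, SE 0.13 and limma adjusted p = 3.16e-33). GAPDH, a glycolytic enzyme given as a reference level, had 927 and 831 RPKM in QKI-knockdown libraries and 984 and 765 RPKM in control libraries. The epithelial keratins KRT8 and KRT18 exceeded 90 RPKM in all 4 libraries, while the epithelial cadherin CDH1 stayed below 0.2 RPKM in each, and KRT5 was not listed. Among the markers of other cell types, CD68 had 14.7 and 12.2 RPKM in QKI-knockdown libraries and 17.3 and 16.1 RPKM in control libraries, and COL1A1 54.1 and 29.5 RPKM in QKI-knockdown libraries and 51.4 and 18.6 RPKM in control libraries. Neither CD68 nor COL1A1 was called, and their part in the values below was not tested. The other listed markers of leukocytes (PTPRC), fibroblasts (COL1A2, PDGFRA and LUM) and endothelium (VWF and CDH5) had at most 0.23 RPKM in any library. So did those of ciliated or secretory airway cells (FOXJ1, SCGB1A1 and MUC5AC). In bulk RNA of this kind, fewer cells of a type and less RNA per cell cannot be told apart.

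Several of these genes have near-identical copies, and the authors left out reads that aligned to more than 1 place. The coding sequences of EIF3C and EIF3CL, both on chromosome 16, were identical over 2739 aligned bases, those of EIF5A and its copy EIF5AL1 differed at 5 of 462 bases, and those of EIF1 and EIF1B, which are more distant paralogs, at 61 of 339. The 50-base windows below, from the hg19 genome, show these 3 degrees of likeness within coding exons, since 50 nt was the shorter of the read lengths. Capitals mark the bases that differ from the paired gene. The EIF3C window lies at chr16:28723008-28723057 on the plus strand and that of EIF3CL at chr16:28414890-28414939 on the minus strand. Those of EIF5A and EIF5AL1 lie at chr17:7213035-7213084 and chr10:81272486-81272535, and those of EIF1 and EIF1B at chr17:39846033-39846082 and chr3:40352387-40352436, all on the plus strand.
EIF3C: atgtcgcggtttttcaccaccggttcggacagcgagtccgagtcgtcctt
EIF3CL: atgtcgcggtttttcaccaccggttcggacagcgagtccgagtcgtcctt
EIF5A: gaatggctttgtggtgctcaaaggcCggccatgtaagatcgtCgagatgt
EIF5AL1: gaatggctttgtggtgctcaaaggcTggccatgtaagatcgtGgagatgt
EIF1: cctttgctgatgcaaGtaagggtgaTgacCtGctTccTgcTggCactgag
EIF1B: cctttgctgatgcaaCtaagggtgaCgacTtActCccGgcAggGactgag

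A read from the EIF3C window could not have been placed on 1 gene. The EIF5A and EIF5AL1 windows differ at 2 bases, fewer than the 3 mismatches the authors allowed, and those of EIF1 and EIF1B at 8. Over all exons of a gene, 98.7% of the 50-base windows of EIF3C and 98.1% of those of EIF3CL had a second exact copy in hg19, and 97.5% and 96.4% of their 75-base windows did. The share at 50 bases was above 20% in 10 of the 58 genes, among them EIF4B with 60.1%, EIF4H with 59.9%, EIF5AL1 with 59.1%, EIF1AX with 48.8% and EIF4E with 41.2%, while 20 genes had no such window. The RPKM values of the 10 genes count only what could be placed and are uncertain as levels. Copies that differ by up to the 3 mismatches allowed were not counted. The shares may therefore understate the ambiguous sequence in any of the 58 genes. Levels were compared between genes per assigned length, but the authors do not state these lengths. The smallest lengths that fit the RPKM values ran from 0.33 to 8.21 times the union of protein-coding exons (median 1.46). The order of genes by RPKM is therefore approximate. This length is the same in all 4 libraries and leaves differences between libraries untouched.

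No initiation factor or Argonaute passed the limma test at an adjusted p of 0.05. This held in the fit without a block, which called 0% of all genes, and in the fit that adds the replicate number as a block, which called 101 of 11829 genes (0.854%). The smallest adjusted p among the 56 tested members was 1.00 without the block and 0.77 with it. Without the block, 0 members and 13 of all genes had an unadjusted p under 0.05. With the block 1 member did, EIF1AX, beside 6.15% of all genes, and voom of limma on the recovered reads called 0 members with and without the block. A p that misses the threshold does not show equal levels: with the block, the 95% intervals of the members' differences had a median half-width of 0.23 (0.23 to 0.32), with bounds reaching down to −0.55 for EIF1AX and up to 0.44 for EIF5AL1. Limma with the block gave each gene the spread common to genes of like level, not its own. EIF4EBP1, with differences of −0.21 and 0.38, and EIF3H, with 0.08 and 0.09, both had an SE of 0.12. Without the block, their SEs were wider, at 0.74 for EIF4EBP1 and 0.25 for EIF3H. The p-values and intervals of the fit with the block therefore do not measure how far the replicates of a single gene lie apart.

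**Figure D1:**
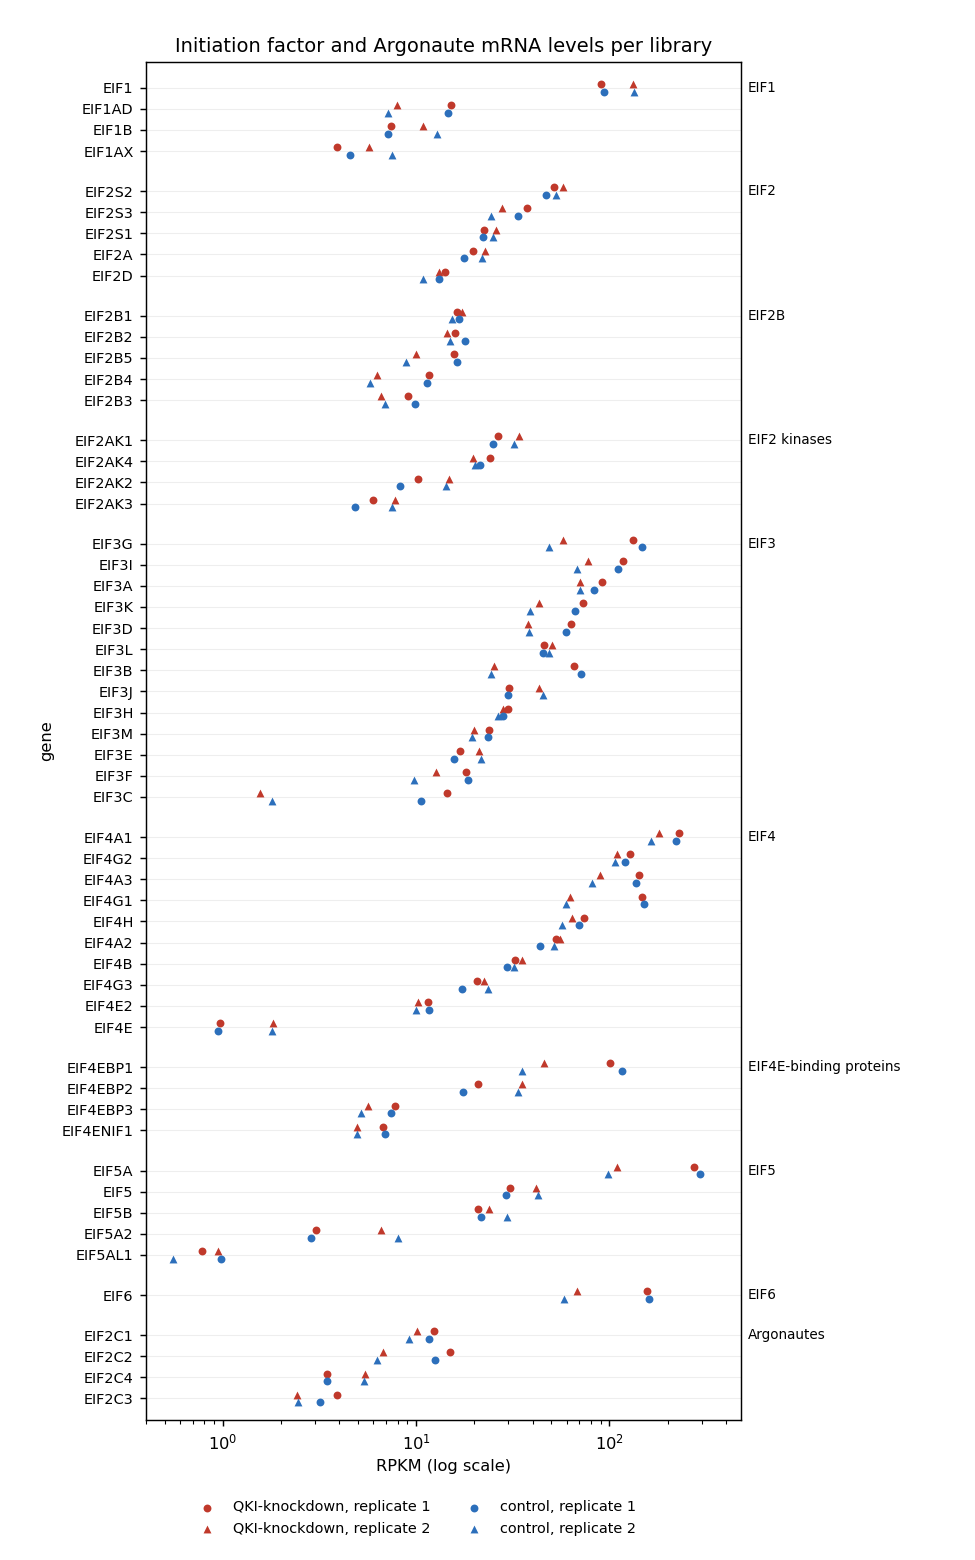
RPKM per library on a log axis for the tested initiation factors and Argonautes, with EIF1AY left out, arranged by group and, within a group, by mean level. Red symbols are QKI-knockdown and blue symbols control libraries, circles replicate 1 and triangles replicate 2. For most genes the symbols of 1 shape lie close together and the shapes lie apart, as for EIF3C with 14.4 and 1.56 RPKM in QKI-knockdown and 10.5 and 1.79 RPKM in control libraries.

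The differences between QKI-knockdown and control libraries were small and more often positive than negative. The median over the 56 members was 0.07, with 46 above 0 and 10 below, beside 0.03 over all genes, of which 4495 of 11829 were below 0. By replicate number, the members' median was 0.05 in replicate 1 and 0.06 in replicate 2. Of the members, 28 (50%) were higher in QKI-knockdown libraries in both replicate numbers, beside 31.7% of all genes, and 6 (10.7%) were lower in both, beside 16.6% of all genes. When each library was centred on its median gene, the members split 39.3% higher in both against 19.6% lower in both, beside 22.9% and 23.3% of all genes. The 6 that were lower in both as deposited were EIF1, EIF1AX, EIF2B2, EIF2B3, EIF4ENIF1 and EIF5B. The spread over members was narrow, with an SD of 0.14 in replicate 1 and 0.15 in replicate 2, where all genes had 0.20 and 0.21.

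Both QKI-knockdown libraries lay above both control libraries for 3 members (5.36%), EIF3H, EIF4A2 and EIF4B, beside 5.71% of all genes, and with median centring for 1 member, EIF4A2. Both lay below for 0 members, beside 2.89% of all genes. These shares are near or under the background. The difference of a member in replicate 1 said little about that in replicate 2: across the 56 genes, which share the 4 libraries and are not independent replicates, Pearson's r was −0.17 and Spearman's rho −0.11, and across all 11829 tested genes r was 0.10 and rho −0.04.

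**Figure D2:**
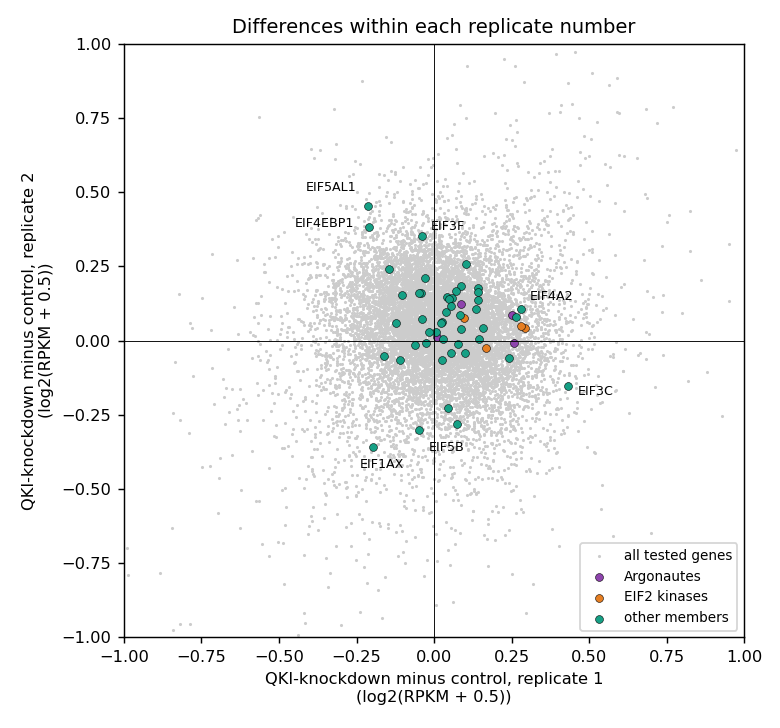
Difference between the QKI-knockdown and the control library on the scale log2(RPKM + 0.5), in replicate 1 on the horizontal axis and in replicate 2 on the vertical axis, for each tested member other than EIF1AY and, in grey, for all tested genes within the axes. The members lie inside the grey cloud, with 28 of the 56 tested members in the upper right part and 6 in the lower left.

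EIF1 and EIF1A bind the small subunit and help it to recognise the start codon. EIF1, by RPKM the most abundant gene of this group, had 90.2 and 132 RPKM in QKI-knockdown libraries and 94.1 and 133 RPKM in control libraries. Its differences of −0.06 and −0.02 were below the spread between libraries of a group. EIF1AX, the X-linked gene for EIF1A, had the largest negative difference of all members: 3.87 and 5.71 RPKM in QKI-knockdown libraries, against 4.51 and 7.47 RPKM in control libraries. Each QKI-knockdown library was below the control library of its number, by −0.20 and −0.36, but QKI-knockdown replicate 2 was above control replicate 1, so the groups overlapped. With the block the mean difference of −0.28 had a 95% interval from −0.55 to −0.01 (limma unadjusted p = 0.042, adjusted p = 0.77). As 48.8% of its 50-base windows are repeated elsewhere, this level counts only the placeable part of the gene.

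EIF1B, the paralog of EIF1, had 7.42 and 10.9 RPKM in QKI-knockdown libraries and 7.18 and 12.8 RPKM in control libraries, with differences of opposite sign, 0.04 and −0.23. Its ratio to EIF1 was 0.0823 and 0.0825 in QKI-knockdown libraries and 0.0763 and 0.0961 in control libraries. EIF1AD, named for an EIF1A-like domain, was at 15.1 and 7.92 RPKM in QKI-knockdown libraries and 14.7 and 7.10 RPKM in control libraries. The Y-linked EIF1AY is counted among the members, but its values are not given here. The median of the 5 genes was −0.04, and 1 was higher and 2 were lower in both replicate numbers.

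The 3 subunits of EIF2 deliver the initiator tRNA, and EIF2A and EIF2D are separate proteins that can also bring tRNA to the ribosome. All 5 genes of this group were higher in QKI-knockdown libraries in both replicate numbers, and 4 of them with median centring, yet none was called. The median difference was 0.12, at 0.13 in replicate 1 and 0.11 in replicate 2. EIF2S2, the beta subunit, was at 51.4 and 57.2 RPKM in QKI-knockdown libraries and 46.8 and 53.1 RPKM in control libraries. EIF2S3, the gamma subunit that binds GTP and the tRNA, was at 37.2 and 27.7 RPKM in QKI-knockdown libraries and 33.7 and 24.4 RPKM in control libraries. In both genes the QKI-knockdown library was the higher one of each number, but QKI-knockdown and control values interleaved across numbers.

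EIF2S1, the alpha subunit on which the kinases act, had the smallest difference of this group at 0.04, with 22.5 and 25.9 RPKM in QKI-knockdown libraries and 22.1 and 24.8 RPKM in control libraries. EIF2D, the lowest of this group, had 14.1 and 13.0 RPKM in QKI-knockdown libraries and 13.1 and 10.8 RPKM in control libraries. Its mean difference of 0.18 (95% interval with the block −0.06 to 0.42) was the second highest of all members. EIF2A had 19.8 and 22.7 RPKM in QKI-knockdown libraries and 17.7 and 22.0 RPKM in control libraries.

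EIF2B is the exchange factor that reloads EIF2 with GTP, and its 5 subunits did not lie on one side: 1 was higher and 2 were lower in both replicate numbers, with a median of 0.06. EIF2B2, the beta subunit, had 15.9 and 14.5 RPKM in QKI-knockdown libraries and 17.8 and 15.0 RPKM in control libraries. EIF2B3, the gamma subunit and by mean RPKM the lowest of the 5, had 9.04 and 6.57 RPKM in QKI-knockdown libraries and 9.80 and 6.89 RPKM in control libraries. Their mean differences were −0.11 and −0.09, with intervals that include 0. EIF2B1, the alpha subunit and the highest of the 5, had 16.3 and 17.2 RPKM in QKI-knockdown libraries and 16.7 and 15.4 RPKM in control libraries. EIF2B4, the delta subunit, was at 11.6 and 6.24 RPKM in QKI-knockdown libraries and 11.3 and 5.79 RPKM in control libraries, and EIF2B5, the catalytic epsilon subunit, was at 15.8 and 9.98 RPKM in QKI-knockdown libraries and 16.3 and 8.88 RPKM in control libraries. All 5 ranges overlapped between the groups.

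Each of the 4 EIF2 kinases answers to another stress. EIF2AK2 (PKR), which senses double-stranded RNA, had 10.2 and 14.7 RPKM in QKI-knockdown libraries and 8.22 and 14.3 RPKM in control libraries. EIF2AK3 (PERK), of the unfolded protein response, had 5.97 and 7.74 RPKM in QKI-knockdown libraries and 4.82 and 7.47 RPKM in control libraries. Both showed their difference mainly in replicate 1, with 0.29 for EIF2AK2 and 0.28 for EIF2AK3, against 0.04 and 0.05 in replicate 2. Their 95% intervals with the block reached from −0.07 to 0.41 and from −0.10 to 0.43. EIF2AK1 (HRI), which responds to low heme, differed alike in both numbers, by 0.10 and 0.08, with 26.6 and 33.9 RPKM in QKI-knockdown libraries and 24.8 and 32.1 RPKM in control libraries. EIF2AK4 (GCN2), which responds to uncharged tRNA, differed by 0.17 in replicate 1 and −0.03 in replicate 2, with 24.1 and 19.7 RPKM in QKI-knockdown libraries and 21.4 and 20.0 RPKM in control libraries. The median of the 4 was 0.13, or 0.22 in replicate 1 and 0.05 in replicate 2.

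EIF3 is the large complex that bridges the ribosome and the cap-binding factors, and its 14 genes held between 25.4% and 27.6% of the members' summed RPKM. Of the 13 tested, 6 were higher in QKI-knockdown libraries in both replicate numbers and 0 were lower in both, or 3 and 2 with median centring, and the median was 0.05. EIF3K was highest by mean difference among those of 1 sign, at 0.15, with 73.4 and 43.4 RPKM in QKI-knockdown libraries and 66.4 and 38.7 RPKM in control libraries. EIF3I followed at 0.14, with 118 and 77.4 RPKM in QKI-knockdown libraries and 111 and 68.1 RPKM in control libraries. For both subunits the difference between groups was smaller than that between the libraries of a group, and the ranges overlapped. EIF3H was the exception in this complex: 29.7 and 28.1 RPKM in QKI-knockdown libraries, against 28.0 and 26.4 RPKM in control libraries. Its values did not overlap, by a margin of less than 0.1 RPKM, and its mean difference was 0.08 (95% interval with the block −0.14 to 0.31).

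EIF3G, which binds RNA, had the highest mean RPKM of the EIF3 genes, although EIF3I and EIF3A were higher in both replicate 2 libraries. It was at 133 and 57.8 RPKM in QKI-knockdown libraries and 147 and 48.8 RPKM in control libraries, so that its difference was −0.15 in replicate 1 and 0.24 in replicate 2. EIF3F differed by −0.04 and 0.35, with 18.0 and 12.6 RPKM in QKI-knockdown libraries and 18.5 and 9.77 RPKM in control libraries. The scaffold subunit EIF3B also lay far apart by number, with 65.5 and 25.4 RPKM in QKI-knockdown libraries and 71.4 and 24.3 RPKM in control libraries. EIF3J, a loosely bound subunit, was one of the few subunits that were higher in replicate 2 in both groups, at 30.3 and 43.4 RPKM in QKI-knockdown libraries and 29.8 and 45.4 RPKM in control libraries.

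EIF3C, with EIF3CL as its copy, differed most between the replicate numbers. In QKI-knockdown libraries it had 14.4 and 1.56 RPKM, from 1269 and 233 recovered reads. In control libraries it had 10.5 and 1.79 RPKM, from 906 and 266 recovered reads. Replicate 2 was thus below replicate 1 by −2.85 in QKI-knockdown and −2.27 in control libraries, although replicate 2 was the deeper library. EIF3CL, which was not tested, had 12 and 1 recovered reads in QKI-knockdown libraries and 8 and 0 in control libraries. Its levels were 0.132 and 0.00651 RPKM in QKI-knockdown libraries and 0.0905 and 0 RPKM in control libraries. The ratio of EIF3C to EIF3B, subunits of the same complex, was 0.220 and 0.0614 in QKI-knockdown libraries and 0.148 and 0.0735 in control libraries. How far the repeated sequence shown above sets these values was not tested.

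The EIF4 genes encode the cap-binding protein EIF4E, the scaffold EIF4G, the helicase EIF4A and its cofactors. They held the largest share of the members' summed RPKM, 32.0% and 32.8% in QKI-knockdown libraries and 31.0% and 32.3% in control libraries. Of the 10 tested, 7 were higher in QKI-knockdown libraries in both replicate numbers and 0 were lower in both, or 6 and 2 with median centring, and the median was 0.09. EIF4A2 had the largest positive difference of all members: 53.2 and 55.7 RPKM in QKI-knockdown libraries, against 43.7 and 51.7 RPKM in control libraries. Both QKI-knockdown libraries were above both control libraries, by 0.28 and 0.11 within the numbers, and the mean of 0.19 had a 95% interval with the block from −0.03 to 0.42 (limma unadjusted p = 0.093, adjusted p = 0.98). Its close relative EIF4A1, the most abundant EIF4 gene, had 230 and 182 RPKM in QKI-knockdown libraries and 221 and 164 RPKM in control libraries. The ratio of EIF4A2 to EIF4A1 was 0.231 and 0.307 in QKI-knockdown libraries and 0.198 and 0.314 in control libraries. It was thus higher with knockdown in replicate 1 and lower in replicate 2. The recovered length was 8.21 times the exon union for EIF4A2 and 1.48 times for EIF4A1, so the size of the ratio is uncertain.

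EIF4B, a cofactor of the helicase, differed by 0.14 in both numbers and did not overlap, with 32.5 and 35.2 RPKM in QKI-knockdown libraries and 29.4 and 31.9 RPKM in control libraries. EIF4H, a cofactor of the same kind, had 73.4 and 64.2 RPKM in QKI-knockdown libraries and 69.8 and 57.1 RPKM in control libraries. Both belong to the genes with much repeated sequence. The exact permutation test of 1 gene cannot go below a two-sided p of 0.333 with 2 libraries against 2, so the absence of overlap in EIF4A2, EIF4B and EIF3H carries no test of its own.

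EIF4E was the lowest tested EIF4 gene, at 0.968 and 1.81 RPKM in QKI-knockdown libraries and 0.940 and 1.80 RPKM in control libraries. The level of this gene divides its reads by a recovered length of 5.34 times its exon union and leaves out repeated sequence. It is thus a poor guide to abundance, but the groups were within 0.03 of each other in both numbers. EIF4E2, a cap-binding relative that does not bind EIF4G, differed by −0.02 and 0.03, with 11.5 and 10.2 RPKM in QKI-knockdown libraries and 11.6 and 9.95 RPKM in control libraries. EIF4E3, another relative, was not tested, with 0.256 and 0.498 RPKM in QKI-knockdown libraries and 0.208 and 0.432 RPKM in control libraries.

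The scaffolds differed by number rather than by group. EIF4G1, the main scaffold, had 147 and 62.7 RPKM in QKI-knockdown libraries and 151 and 59.6 RPKM in control libraries, whereas EIF4G2, a relative that lacks the EIF4E-binding part, had 127 and 109 RPKM in QKI-knockdown libraries and 120 and 106 RPKM in control libraries. The ratio of EIF4G2 to EIF4G1 was therefore 0.865 and 1.74 in QKI-knockdown libraries and 0.794 and 1.79 in control libraries. Which of the genes was higher by RPKM depended on the replicate number in both groups. Their recovered lengths were 4.52 (EIF4G2) and 3.15 (EIF4G1) times the exon union, so this order is approximate. EIF4A3, a helicase of the exon junction complex, had 142 and 89.2 RPKM in QKI-knockdown libraries and 137 and 81.0 RPKM in control libraries.

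Of the proteins that bind EIF4E, EIF4EBP1 and EIF4EBP2 are targets of the mTOR kinase. EIF4EBP1 had 101 and 46.0 RPKM in QKI-knockdown libraries and 116 and 35.2 RPKM in control libraries. Its differences, −0.21 in replicate 1 and 0.38 in replicate 2, were among the largest of any member and of opposite sign. EIF4EBP2 was higher with knockdown in both numbers, by 0.26 and 0.08, with 21.0 and 35.4 RPKM in QKI-knockdown libraries and 17.4 and 33.4 RPKM in control libraries, and its mean difference was 0.17 (95% interval with the block −0.06 to 0.40). The ratio of EIF4EBP2 to EIF4EBP1 was 0.208 and 0.769 in QKI-knockdown libraries and 0.149 and 0.951 in control libraries, again set apart by number and not by group. EIF4EBP3 had 7.74 and 5.65 RPKM in QKI-knockdown libraries and 7.43 and 5.17 RPKM in control libraries. EIF4ENIF1, which carries EIF4E into the nucleus, had 6.74 and 4.91 RPKM in QKI-knockdown libraries and 6.86 and 4.93 RPKM in control libraries, within 0.03 in both numbers.

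EIF5 triggers GTP hydrolysis by EIF2, EIF5B joins the ribosomal subunits, and EIF5A, in spite of its name, acts mainly in elongation and termination. By RPKM, EIF5A was the most abundant member in both replicate 1 libraries, and EIF4A1 in both replicate 2 libraries. EIF5A had 274 and 110 RPKM in QKI-knockdown libraries and 294 and 98.6 RPKM in control libraries. EIF5B had 20.9 and 23.8 RPKM in QKI-knockdown libraries and 21.6 and 29.5 RPKM in control libraries. It was lower with knockdown in both numbers, by −0.05 and −0.30, and its mean difference of −0.18 (95% interval with the block −0.40 to 0.05) was second to that of EIF1AX. EIF5 itself had 30.4 and 41.7 RPKM in QKI-knockdown libraries and 29.3 and 42.9 RPKM in control libraries. EIF5A2, a paralog of EIF5A, differed by 0.07 and −0.28, with 3.02 and 6.54 RPKM in QKI-knockdown libraries and 2.84 and 8.06 RPKM in control libraries. EIF5AL1 was the lowest of this group, with 0.774 and 0.936 RPKM in QKI-knockdown libraries and 0.976 and 0.549 RPKM in control libraries. EIF6, which keeps the large subunit from joining too early, had 157 and 67.7 RPKM in QKI-knockdown libraries and 160 and 58.4 RPKM in control libraries. The median of the 5 EIF5 genes was 0.01, or −0.03 with median centring.

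The 4 Argonautes bind miRNAs, and EIF2C2 (AGO2) is the one best known for cutting its targets. EIF2C2 had 14.9 and 6.72 RPKM in QKI-knockdown libraries, against 12.5 and 6.29 RPKM in control libraries. It was higher with knockdown by 0.25 in replicate 1 and 0.09 in replicate 2, less than the differences of −1.10 between the QKI-knockdown and −0.93 between the control libraries. EIF2C1 (AGO1) differed by 0.09 and 0.12, with 12.4 and 10.1 RPKM in QKI-knockdown libraries and 11.7 and 9.22 RPKM in control libraries. The mean differences were 0.17 for EIF2C2 and 0.10 for EIF2C1. With the block, their 95% intervals ran from −0.08 to 0.42 and from −0.14 to 0.35. Their SEs were 0.54 and 0.28 without the block, against 0.13 and 0.12 with it. EIF2C3 (AGO3) had 3.90 and 2.42 RPKM in QKI-knockdown libraries and 3.19 and 2.43 RPKM in control libraries, apart by 0.26 in replicate 1 and −0.01 in replicate 2. EIF2C4 (AGO4) was within 0.01 in both numbers, with 3.47 and 5.41 RPKM in QKI-knockdown libraries and 3.44 and 5.36 RPKM in control libraries.

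Summed over the 4 genes, Argonaute mRNA stood at 34.7 and 24.6 RPKM in QKI-knockdown libraries and 30.8 and 23.3 RPKM in control libraries. Their order depended on the number: EIF2C2 led in replicate 1, with 43.0% of the sum in the QKI-knockdown and 40.5% in the control library, and EIF2C1 led in replicate 2, with 40.9% in the QKI-knockdown and 39.6% in the control library. EIF2C4 held 9.99% and 22.0% in QKI-knockdown libraries and 11.2% and 23.0% in control libraries. The makeup of the Argonaute mRNAs therefore followed the replicate number more than the group. Recovered lengths ran from 0.349 (EIF2C3) to 1.08 (EIF2C4) times the exon union, so the shares and the leading gene are approximate.

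**Figure D3:**
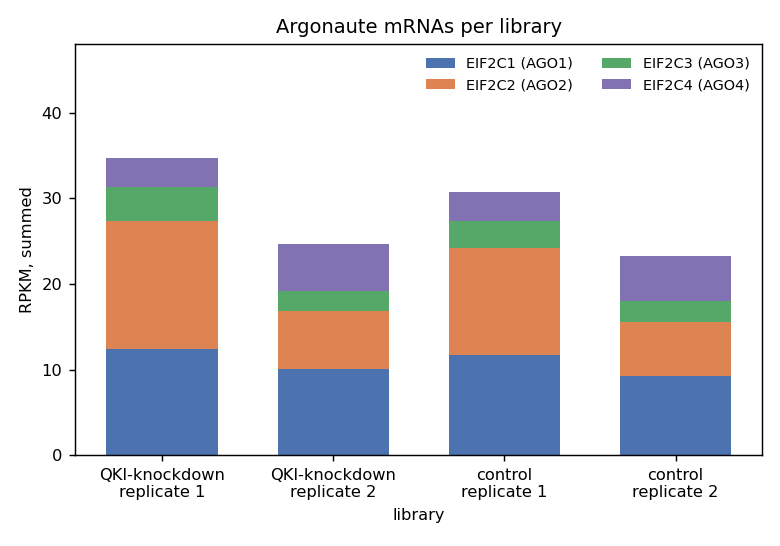
Stacked RPKM of the 4 Argonaute genes in each library, with QKI-knockdown libraries on the left and control libraries on the right. The stacks reach 34.7 and 24.6 RPKM in QKI-knockdown libraries and 30.8 and 23.3 RPKM in control libraries, and the EIF2C2 segment is smaller in both replicate 2 libraries.

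The difference between the replicate numbers, taken as replicate 2 minus replicate 1, exceeded the difference between the groups, in mean size, for 52 of the 56 tested members and for 89% of all tested genes. Its SD over the 56 members was 0.69 in QKI-knockdown and 0.77 in control libraries. More than 2-fold lower in replicate 2 in both groups were 7 members (12.5%), EIF3B, EIF3C, EIF3G, EIF4EBP1, EIF4G1, EIF5A and EIF6, beside 6.33% of all genes. More than 2-fold higher in replicate 2 in both groups was 1 member (1.79%), EIF5A2, beside 4.74% of all genes. The 7 include EIF5A, the main EIF4 scaffold and EIF6. The values in the QKI-knockdown libraries tracked those in the control libraries, with r = 0.96 and rho = 0.96 across the 56 genes, beside r = 0.95 over all genes.

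This difference went with base composition. Across the 56 members, the GC content of the transcript and the mean difference between the numbers had r = −0.76 and rho = −0.75, and across 11616 tested genes with a GC content r = −0.69 and rho = −0.72. The genes of a set share the 4 libraries and are not independent replicates. In the 13 members under 40% GC the median was 0.31 in QKI-knockdown and 0.45 in control libraries. In the 26 members from 40% to under 50% GC it was 0.07 in QKI-knockdown and −0.09 in control libraries. In the 17 members with 50% GC or more it was −0.75 in QKI-knockdown and −0.84 in control libraries, and all 17 were below 0. EIF5A2, with 33.9% GC, and EIF4EBP1, with 62.9% GC, mark the ends of this range, and EIF3C, with 54.8% GC, lay far below genes of like GC content. The difference between QKI-knockdown and control libraries went with GC content much less, with r = 0.21 and rho = 0.13. The 2 runs of the study had read lengths of 50 and 75 nt, which neither the methods nor the labels tie to a replicate number, and the cause of the difference between the numbers was not tested.

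**Figure D4:**
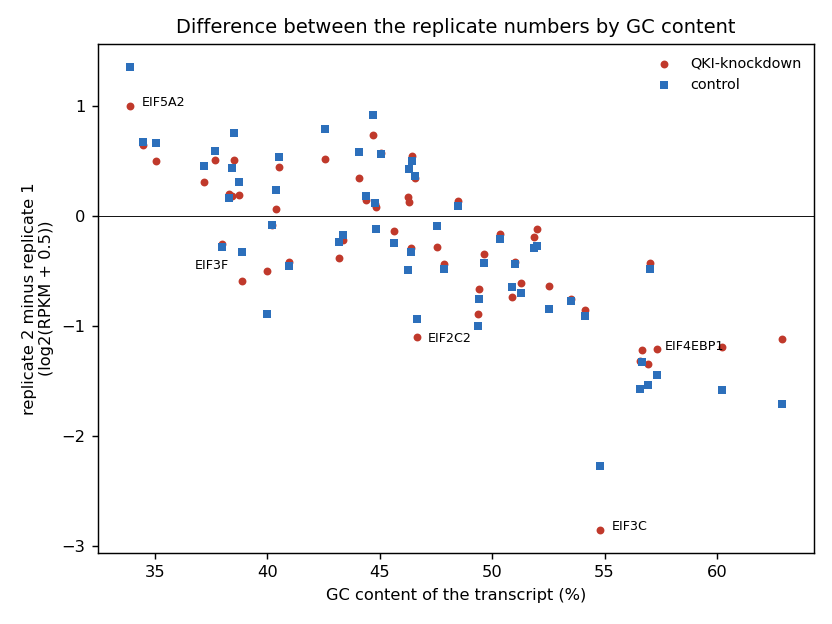
Replicate 2 minus replicate 1 on the scale log2(RPKM + 0.5) against the GC content of the transcript in percent, for each tested member other than EIF1AY, with red circles for QKI-knockdown and blue squares for control libraries. Points fall from the upper left to the lower right in both groups, all members with 50% GC or more lie below 0, and EIF3C lies lowest, at −2.85 in QKI-knockdown and −2.27 in control libraries.

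Together the 58 genes held 1.16% and 0.989% of all RPKM in QKI-knockdown libraries and 1.12% and 0.969% in control libraries. The share was higher with knockdown within each number, and lower in replicate 2 in both groups.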

How the data were processed

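The authors ran Bowtie, of a version that the sources used here do not state, with at most 3 mismatches against hg19 and the exon junctions of protein-coding genes in Ensembl. They discarded ambiguous reads and deposited RPKM values, 1 table per library. Neither the handling of overlapping genes nor the strand is stated, so reads of overlapping genes cannot be told apart. A gene missing from a table was given 0 RPKM.

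Read numbers were worked back from the RPKM: 100% of 61702 values came out whole within a relative tolerance of 1e-11. The ratios of length to reads that were tried were so fine that almost any value would pass. This result therefore does not test the recovered totals, lengths or reads. The length and reads of a gene are the smallest that fit its values, so the true ones may be multiples of them. Reads over genes summed to between 1.35 and 1.53 times the recovered totals. limma 3.58.1 (R 4.3.3), with its trend option, was run two-sided on log2(RPKM + 0.5) for all genes whose mean reached 0.5 RPKM, with Benjamini-Hochberg adjustment over all genes and a threshold of 0.05. The fit without a block is the main one, and that with a block for replicate number stands beside it. Deviations of same-numbered libraries from their group means correlated at 0.95 across genes. The labels give no shared culture or day, so the number is treated as a batch. Voom of limma on recovered reads, other pseudocounts, expression limits, median centring and leaving out each library were alternatives. The scripts were tested on simulated data. Positions, coding sequences and GC content, known for 98.2% of tested genes, come from GENCODE on hg19. Python 3.11.15 with pandas 2.3.3, numpy 2.4.6, scipy 1.17.1, Biopython 1.88 and matplotlib 3.10.9 was used.

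The members and lists were chosen with earlier results of these data known. Named by rule were QKI, GAPDH, EIF2 kinases, Argonautes, EIF4E-binding proteins, the highest and lowest of each group, untested members, near-identical pairs (by coding sequence), the 10 largest differences in each direction with 1 sign in both numbers (6 negative ones met this), and, of a list of other translation and RISC genes, the 2 highest and 2 lowest. Other members named, chosen after their values were seen, complete a group, differ by number or enter a ratio.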

Additional observations from a re-analysis of the deposited data

How the results depend on the processing

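No member was called under any alternative run. The median difference over the members was 0.07 as deposited and with the replicate block, 0.039 with median centring and with the replicate block and median centring, and 0.066 with voom on recovered reads, with or without the block. Leaving out 1 library unbalances the replicate numbers, the lone library being assumed to vary like the other group, and gave medians from −0.049 to 0.15, negative without replicate 1 of the knockdown (−0.049) or without control replicate 2 (−0.03). EIF3C then had an unadjusted limma p under 0.05 without QKI-knockdown replicate 2 and without control replicate 1. With median centring, 37 members were above 0 and 19 below, where 46 and 10 were as deposited. Of the 55 tested members other than EIF1AY, 9 changed sign, as did the EIF5 group median. Leaving out 1 library changed the sign of between 13 and 32 of the 55 and of between 2 and 7 of the 10 group medians. Voom changed that of 1 or 2 of the 55 and 1 group median. A limit of 1 RPKM changed that of 0 of 54 members and 1 group median. Of all genes, 101 were called with the replicate block, 114 with the block and median centring, 50 with voom and the block, and 0 by limma or voom without it on all 4 libraries, while limma without the block called between 0 and 3 genes with 1 library left out. EIF3CL had at most 12 recovered reads per library, too few for a comparison.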

Other observations

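A list of other genes of translation and of the miRNA pathway was counted beside the members. Of 57 genes on the list, 54 were listed in the tables and 50 were tested. Of the 50, 0 were called by limma in either fit and 0 had an unadjusted p under 0.05 with the block. In both replicate numbers, 15 of the 50 were higher and 9 lower in QKI-knockdown libraries. These shares are near those of all genes, 31.7% and 16.6%. The median was 0.03, the same as over all genes. The highest were MCTS1, a partner of the recycling factor DENR, with 11.0 and 10.8 RPKM in QKI-knockdown libraries and 9.19 and 9.51 RPKM in control libraries, and DNAJC3, an inhibitor of EIF2 kinases, with 17.0 and 17.7 RPKM in QKI-knockdown libraries and 14.0 and 16.9 RPKM in control libraries. The lowest were TRIB3, a pseudokinase induced by stress, with 12.8 and 9.89 RPKM in QKI-knockdown libraries and 14.9 and 11.3 RPKM in control libraries, and IMPACT, an inhibitor of GCN2, with 4.32 and 7.78 RPKM in QKI-knockdown libraries and 4.34 and 9.52 RPKM in control libraries. The elongation and termination factors had a median of 0.08 over 10 tested genes, and the miRNA processing and RISC partners 0.04 over 9.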
